A study of Homo sapiens with 24 samples.

Results

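The ZBTB genes encode transcription factors that carry a BTB domain at 1 end and zinc fingers at the other. The group described here was every protein-coding gene whose symbol is ZBTB followed by a number, with or without further letters, and it held 42 of the 61533 genes in the table. It was built around ZBTB16 (ENSG00000109906.15, chr11:114059041-114256765 on the plus strand of hg38), which had been selected on its measured response to dexamethasone, among the strongest of all genes in these same libraries, and the other 41 are called its paralogs below. For ZBTB16 the response to dexamethasone is therefore a description, given without a test against 0 h. One name follows the rule but not the family. ZBTB8OS is the gene of archease, a cofactor of the ligase that joins spliced tRNA, and it lies opposite ZBTB8A without encoding a BTB zinc finger protein. It was kept because the rule takes it.

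In proteins of this family the zinc fingers read DNA, and the BTB domain pairs the protein with itself or with relatives and recruits corepressors such as BCOR. Many members are known as repressors that hold a cell lineage in place, above all in blood and immune cells. ZBTB16, also called PLZF, is needed for stem cell maintenance in the testis and for natural killer T cells, and it is a textbook glucocorticoid target in many tissues. Its inducer, the glucocorticoid receptor (GR), moves into the nucleus once it has bound hormone and there recognises short inverted repeats in DNA.

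The measurements were made by 4sU-seq, which reads out recent transcription, in the osteosarcoma line U2OS, whose own GR is low. The cells were labelled with 200 µM 4-thiouridine for the final hour, and the labelled RNA was pulled down and sequenced. All lines carried GR fused to HaloTag under a CMV promoter, integrated with PiggyBac, selected with puromycin and sorted for the tag. The lines were wt, SoF (K492A, made to bind RNA less) and Ctrl (R470A, with intact RNA binding and a DNA binding loss like that of SoF). Each line was 1 stable pool, so that the construct and the pool cannot be told apart. Dexamethasone, a synthetic hormone of this class, was given at 100 nM, and RNA was taken after 1, 2 or 3 h. The dishes called 0 h had 0.01% ethanol instead. Lines and times made 12 groups with 2 libraries in each, or 24 libraries. The time in ethanol is not stated, so that the 0 h libraries are not known to match the treated ones in time since handling. Nothing says whether the 2 libraries of a group came from separate cultures, and p-values measure the spread between these libraries. The paper states that biotin labelling and pulldown were carried out in replicate pairs of a sample. If such a pair is the 2 libraries of a group, differences between pulldowns fall between groups and not within that spread. The study asked how the loss of RNA binding by GR changes the response to the hormone.

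Total exon counts were 8106036 to 15820806 per library. Paired libraries of a group differed by a chi-square per degree of freedom of 5.47 to 19.7, far above the 1 of pure counting error, and the spread between libraries set the precision. FKBP5, a GR target used as a check, rose at 3 h in every line, by 2.39 (log2) in Ctrl, 3.11 in wt and 3.68 in SoF. The targets PER1 (1.02 in Ctrl, 1.21 in wt, 1.04 in SoF) and KLF9 (1.07, 2.16 and 2.08) rose too. A further target, TSC22D3, rose by 2.04 in wt and 2.33 in SoF. In Ctrl it did not pass at 3 h (0.1, SE 0.344, edgeR adjusted p = 0.885). NR3C1, the GR gene, whose reads here mix the transgene and the cell's own gene, averaged 3500 CPM in Ctrl, 2850 in SoF and 771 in wt. These are levels of new RNA and not of protein. The paper picked the sorted fractions by immunofluorescence so that nuclear GR protein after hormone matched between lines. The osteoblast markers RUNX2 (51.5 to 158 CPM), COL1A1 (250 to 1010 CPM) and SPARC were present, but SP7 and IBSP were at or near 0 and COL1A2 did not pass 0.602 CPM. Of the same lineage, ALPL ran from 8.07 to 44 CPM and BGLAP from 0.43 to 1.32 CPM. CD3E stayed at or below 0.101 CPM and PTPRC at or below 2.17 CPM, both markers of leukocytes. The endothelial marker PECAM1 did not pass 0.596 CPM. Of 2 epithelial markers, EPCAM was low (1.05 to 3.6 CPM) and KRT18 was high (164 to 398 CPM). CPM here are counts scaled to a common library total with TMM factors.

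The promoters of 4 paralogs are shown. ZBTB46 and ZBTB8A rose the most among the paralogs. ZBTB5 was the paralog called lower at 3 h in every line, and ZBTB18 was among those called higher in every line. The ZBTB5 and ZBTB18 windows were picked for holding the motif marked below, so that its presence in them is by choice. The sequences are the 250 bases before a RefSeq start (GRCh38.p14), on the strand of the gene. Capitals mark ACANNNTGT, the core of the inverted repeat that GR binds, which reads the same on both strands. The ZBTB46 window is chr20:63831265-63831514 (minus strand), the ZBTB8A window chr1:32539177-32539426 (plus strand), the ZBTB5 window chr9:37465451-37465700 (minus strand) and the ZBTB18 window chr1:244051033-244051282 (plus strand). The ZBTB46 and ZBTB18 windows belong to starts inside longer annotated transcripts of the same genes and fall in introns of those.
ZBTB46: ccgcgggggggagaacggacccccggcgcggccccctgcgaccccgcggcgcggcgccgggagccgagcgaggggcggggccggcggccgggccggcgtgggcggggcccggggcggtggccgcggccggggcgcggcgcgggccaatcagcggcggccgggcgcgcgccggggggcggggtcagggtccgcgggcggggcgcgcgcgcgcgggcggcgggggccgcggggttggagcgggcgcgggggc
ZBTB8A: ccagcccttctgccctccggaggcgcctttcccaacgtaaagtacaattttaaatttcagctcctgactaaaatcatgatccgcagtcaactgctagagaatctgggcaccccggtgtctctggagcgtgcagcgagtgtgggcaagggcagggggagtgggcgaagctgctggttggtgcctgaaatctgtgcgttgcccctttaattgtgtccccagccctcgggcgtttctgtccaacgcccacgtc
ZBTB5: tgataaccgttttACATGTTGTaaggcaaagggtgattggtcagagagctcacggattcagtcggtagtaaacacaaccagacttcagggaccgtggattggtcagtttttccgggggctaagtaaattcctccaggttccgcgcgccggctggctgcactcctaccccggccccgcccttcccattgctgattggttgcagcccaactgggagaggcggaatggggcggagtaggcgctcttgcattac
ZBTB18: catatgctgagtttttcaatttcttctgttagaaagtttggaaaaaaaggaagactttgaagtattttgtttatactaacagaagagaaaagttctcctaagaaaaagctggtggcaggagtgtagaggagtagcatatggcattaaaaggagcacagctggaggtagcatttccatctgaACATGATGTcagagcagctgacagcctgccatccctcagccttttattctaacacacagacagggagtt

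The core was ACATGTTGT in ZBTB5, 237 bases before the start, and ACATGATGT in ZBTB18, 69 bases before it. These letters were not in the ZBTB46 and ZBTB8A windows. RefSeq windows were at hand for 36 members and not for ZBTB6, ZBTB10, ZBTB16, ZBTB17, ZBTB40 and ZBTB41. Counting the first 50 bases after the start as well, 4 of the 70 windows of members held the core (5.71%), in ZBTB5, ZBTB14, ZBTB18 and ZBTB20, against 1885 of 35116 windows of all genes (5.37%). A longer form, with G 2 bases before the core and C 2 bases after it, was in 0 of the 70 windows and in 137 of all (0.39%). The share in this family was thus near that of all promoters. A match describes letters and does not show binding.

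Most of the family was transcribed in these cells. Of the 42 members, 40 passed the filter on low counts. ZBTB32, known from T cells, had 0 to 5 counts per library, and ZBTB8B averaged 0.312 CPM. Neither was tested. Levels of different genes were set side by side as CPM per kb of exon, taking all annotated exons of a gene together. Exons not used in these cells count in that length, so that the order is approximate. ZBTB20, with the highest mean CPM (353), had 35.36 kb of exon and rank 11 on this scale. ZBTB5 led with a mean of 38.4 over the 24 libraries, followed by ZBTB1 (28.5), ZBTB2 (24), ZBTB38 (22.5) and ZBTB9 (19.8). Neighbours in this order overlapped over the libraries, since ZBTB5 ran from 31.5 to 47.6 and ZBTB1 from 17.9 to 42.3 CPM per kb. The order of these 2 depended on time, for at 0 h ZBTB5 had group means of 43.4 to 45.9 and ZBTB1 of 20.2 to 23.8 CPM per kb, while at 3 h ZBTB1 was the higher in every line (35.6 to 41.3 against 32 to 33.5). The lowest of the tested members were ZBTB46 (1.17), ZBTB16 (0.424) and ZBTB7C (0.178 CPM per kb). The median of the 40 tested members was 6.72 CPM per kb, against 4.58 over the 14693 protein-coding genes tested, and 26 members lay above the latter. ZBTB16 had the widest range of the tested members in fold terms, from 0.00711 to 1.78 CPM per kb. Even at 3 h its group means per kb (0.897 in wt, 1.63 in SoF and 0.563 in Ctrl) stayed under those of ZBTB5, at 32 to 33.5.

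**Figure D1:**
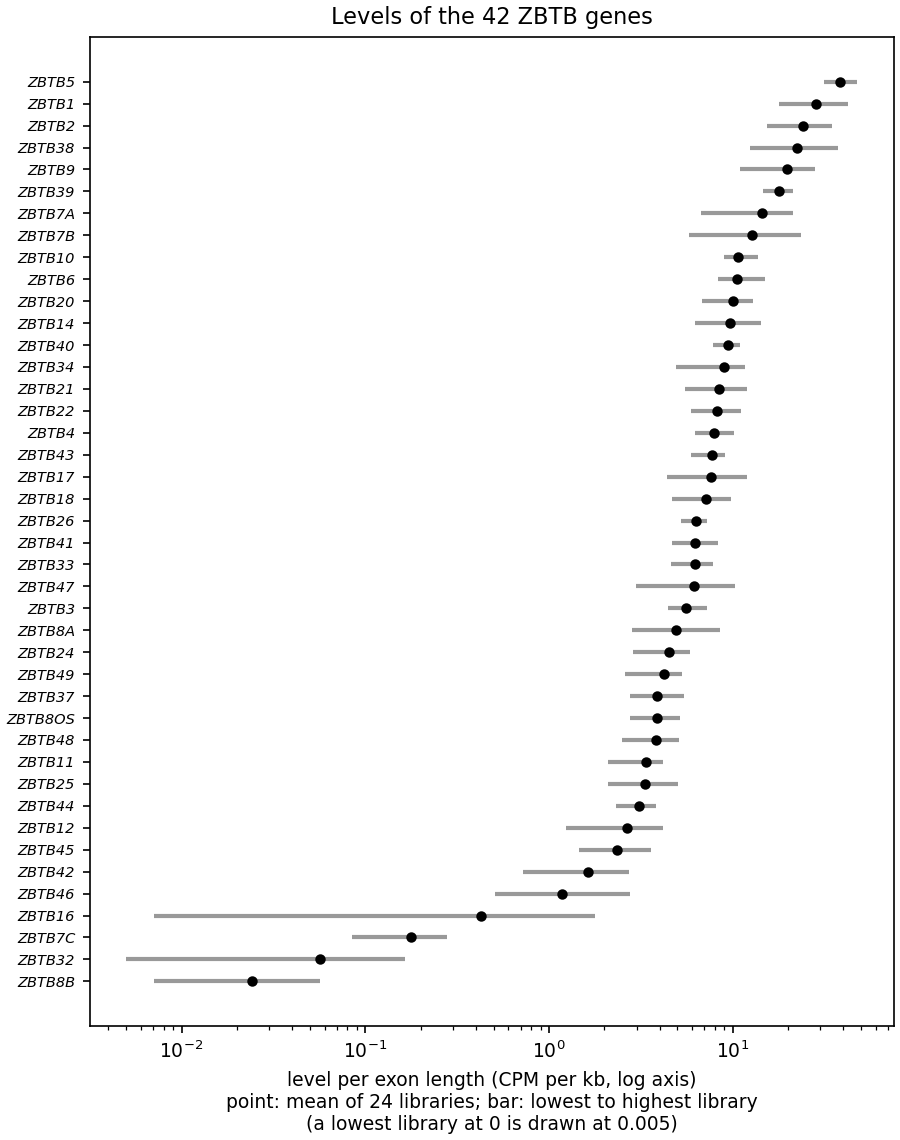
Level of the 42 ZBTB genes per exon length (CPM per kb, log axis), with a point for the mean of 24 libraries and a bar from the lowest to the highest library. ZBTB5 has the highest mean, 38.4, and ZBTB16, at a mean of 0.424, has the longest bar of the 40 tested genes.

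ZBTB16 was close to silent without hormone, and its mean level was higher at each later time in each line. At 0 h its counts were 2 and 5 in wt, 2 and 3 in SoF, and 4 and 1 in Ctrl. In wt the levels were 0.135 and 0.385 CPM at 0 h, 4.51 and 2.55 at 1 h, 6.32 and 7.28 at 2 h, and 11.6 and 18.1 at 3 h. In SoF they were 0.147 and 0.301 at 0 h, 3.82 and 3.42 at 1 h, 9.24 and 10.1 at 2 h, and 29.6 and 24.6 at 3 h. The Ctrl libraries held 0.286 and 0.118 CPM at 0 h, 3.26 and 2.73 at 1 h, 5.91 and 5.39 at 2 h, and 8.48 and 10.2 at 3 h. Every treated library lay above every ethanol library. At 1 h the SoF and Ctrl libraries lay within the range of wt. At 2 h and at 3 h the lines stood apart, with both SoF libraries highest and both Ctrl libraries lowest.

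As a ratio of summed counts, ZBTB16 at 3 h stood 59.6-fold over 0 h in wt (95% exact counting interval 28.7 to 149), 128-fold in SoF (54.4 to 394) and 41.9-fold in Ctrl (17.7 to 130). The same ratio at 1 h was 17 in SoF, 13.8 in wt and 13.5 in Ctrl. These intervals cover counting error alone, and they are wide because the 0 h sums were 7, 5 and 5 counts. From 2 to 3 h the mean level went on climbing, by 1.11 on the log2 scale over the lines.

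**Figure D2:**
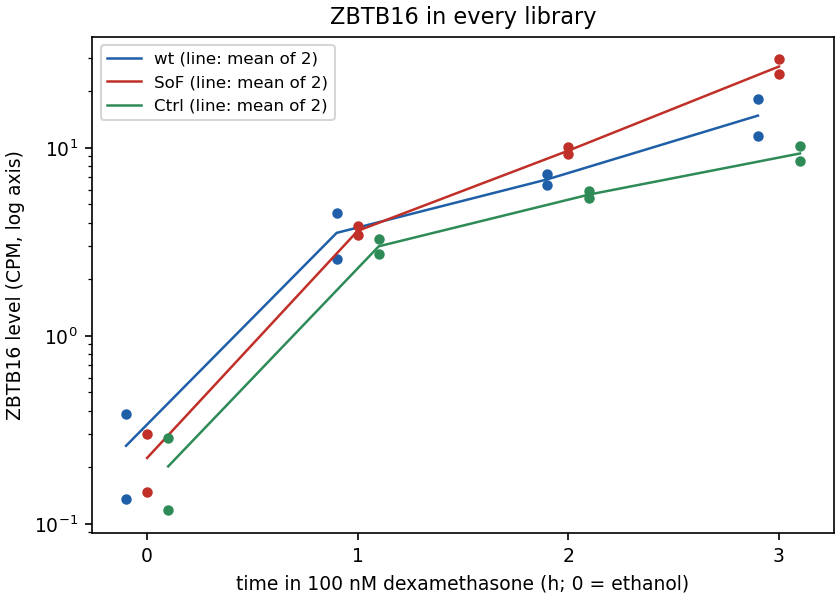
ZBTB16 in each of the 24 libraries (CPM, log axis) by hours in dexamethasone, with points for libraries and lines through the means of 2 for wt, SoF and Ctrl. All ethanol libraries lie at or below 0.385 CPM and all libraries at 3 h at or above 8.48 CPM, with SoF on top.

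ZBTB16 was also compared between the lines, although it had been chosen for its response in these same libraries. Whether that choice was blind to the lines is not known, so that the p-values below are descriptions and not independent tests. The 3 h response against 0 h differed by 1.59 on the log2 scale between SoF and Ctrl (SE 0.925, edgeR adjusted p = 1), by 1.096 between SoF and wt (SE 0.836, adjusted p = 1) and by -0.49 between Ctrl and wt (SE 0.874, adjusted p = 0.983). None passed, and the few counts at 0 h enter each of these errors. Leaving out 1 library moved the first from 0.73 (without the first Ctrl library at 0 h) to 2.09 (without the second SoF library at 0 h) and the second from 0.23 to 1.71 (without the second and the first wt library at 0 h). The levels at 3 h alone, a comparison added after the data had been seen, differed between SoF and Ctrl by 1.54 (SE 0.245, edgeR adjusted p = 0.00146), a call that 0.668% of all tested genes shared. The adjusted p was 0.0783 without the first Ctrl library at 3 h and between 7.41e-07 and 0.0494 in the other alternatives run. SoF and wt differed by 0.86 at 3 h (SE 0.235, adjusted p = 0.19) and Ctrl and wt by -0.67 (SE 0.246, adjusted p = 0.324). Over all times, in a fit on line with a time term, ZBTB16 was higher in SoF than in wt by 0.55 (SE 0.161, adjusted p = 0.0124, with 29% of all genes called) and than in Ctrl by 0.97 (SE 0.169, adjusted p = 0.000227, with 13.3% called), and Ctrl and wt differed by -0.42 (SE 0.173, adjusted p = 0.0899). NR3C1 did not follow the same order, with 3 h means of 350 CPM in wt, 1120 in SoF and 1700 in Ctrl, and its part in the ZBTB16 difference was not tested.

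None of the 39 tested paralogs was called at 1 h, when ZBTB16 already stood above 0 h in every line. The same edgeR test called 0.156% of all genes in wt, 0.165% in SoF and 0.0465% in Ctrl at that time. At an unadjusted p under 0.05 there were 3 paralogs in wt, 2 in SoF and 0 in Ctrl, and DESeq2 called 0 in each line. In the mean over the 3 lines, which sets 6 libraries against 6, edgeR again called 0 paralogs (1.28% of all genes), DESeq2 called 0, and 8 had an unadjusted p under 0.05. That zero rested on the ethanol libraries. It became 3 without the second Ctrl library at 0 h, the smallest of the series, and 17 (7 higher and 10 lower, with 21.7% of all genes called in that fit) when the second ethanol library of every line was left out, while it stayed 0 without the first of every line. Ethanol libraries with the same number deviated together across the lines, with correlations of 0.394 to 0.568 over genes. The mean over lines counts them as 6 independent libraries, so that its p-values may be too small. The largest of the 1 h values was that of ZBTB42, at -0.51 (SE 0.176, adjusted p = 0.192).

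At 2 h edgeR called 3 paralogs in wt (4.6% of all genes), 5 in SoF (5.68%) and 3 in Ctrl (7.95%), all of them higher than at 0 h. Of all genes 3.39%, 4.2% and 5.58% were called higher. ZBTB7B and ZBTB38 were called in all 3 lines. ZBTB7B, or ThPOK, directs developing T cells to the helper lineage, and ZBTB38 binds methylated DNA. ZBTB1, which lymphocytes need for their development, was called in SoF and Ctrl, ZBTB9 in wt, and ZBTB12 and ZBTB14 in SoF. These counts were small and moved with single libraries, to 0 or 1 in wt whichever of its 4 libraries at 0 and 2 h was left out. In SoF the count was 2 without the second library at 0 h, 1 without the first at 2 h and 3 without the second at 2 h. In Ctrl it was 5 without the first and 0 without the second library at 0 h, and 0 and 1 without the first and the second at 2 h.

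ZBTB7B in wt had 35.5 and 39.2 CPM at 0 h, 32.9 and 40.5 at 1 h, 67.9 and 101 at 2 h, and 72.4 and 76.6 at 3 h. In SoF it had 35.4 and 27.7 at 0 h, 28.3 and 25 at 1 h, 90.7 and 62.9 at 2 h, and 82.4 and 73.8 at 3 h. The Ctrl libraries gave 51.6 and 28 at 0 h, 40.1 and 32.1 at 1 h, 83.8 and 78.3 at 2 h, and 56.8 and 57.7 at 3 h. The 1 h libraries overlapped those at 0 h, and every 2 h library lay above every 0 h library. The 2 h change was 1.17 (log2, SE 0.227, adjusted p = 0.00382) in wt, 1.28 (SE 0.23, adjusted p = 0.00127) in SoF and 1.01 (SE 0.228, adjusted p = 0.00771) in Ctrl. At 3 h the Ctrl value was 0.51 (SE 0.228, adjusted p = 0.143), against 1.00 in wt and 1.31 in SoF, both called. The SoF response at 3 h exceeded that of Ctrl by 0.80 (SE 0.322, unadjusted p = 0.0217 and adjusted p = 1 in edgeR), which did not pass.

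ZBTB38, second to ZBTB20 among the paralogs in mean CPM over the 24 libraries, went up at 2 h. In wt it stood at 195 and 201 CPM at 0 h, 177 and 328 at 1 h, 354 and 369 at 2 h, and 335 and 338 at 3 h. SoF had 230 and 340 at 0 h, 268 and 355 at 1 h, 461 and 535 at 2 h, and 358 and 396 at 3 h. Ctrl had 220 and 271 at 0 h, 298 and 215 at 1 h, 366 and 470 at 2 h, and 312 and 300 at 3 h. The highest values of each line were at 2 h, and the 1 h libraries of wt lay far apart. In the mean over the lines the change was 0.82 at 2 h (SE 0.132, edgeR adjusted p = 7.97e-05) and 0.50 at 3 h (SE 0.132, adjusted p = 0.00468). The 3 h call was lost without the first ethanol library of every line, and with the 1 h libraries as the baseline, where the change was 0.31 (adjusted p = 0.051).

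At 3 h edgeR called 13 paralogs in wt (12 higher and 1 lower), 13 in SoF (11 and 2) and 9 in Ctrl (8 and 1), which were 33.3%, 33.3% and 23.1% of the 39 tested. Over all tested genes the same rule called 10.7% (6.6% higher and 4.12% lower), 19.3% (11.2% and 8.11%) and 14.2% (8.58% and 5.6%), and over protein-coding genes 13.2%, 23.3% and 18.5%. The median paralog changed by 0.16 in wt, by 0.27 in SoF and by 0.20 in Ctrl, beside -0.03, -0.03 and -0.02 for all genes. The line counts leaned on single libraries. In wt the count was 5 without either library at 0 h, 5 without the first and 3 without the second at 3 h. It was 6 and 7 in SoF without the second library at 0 h and at 3 h, and in Ctrl 3 without the second at 0 h, 5 without the first and 2 without the second at 3 h.

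**Figure D3:**
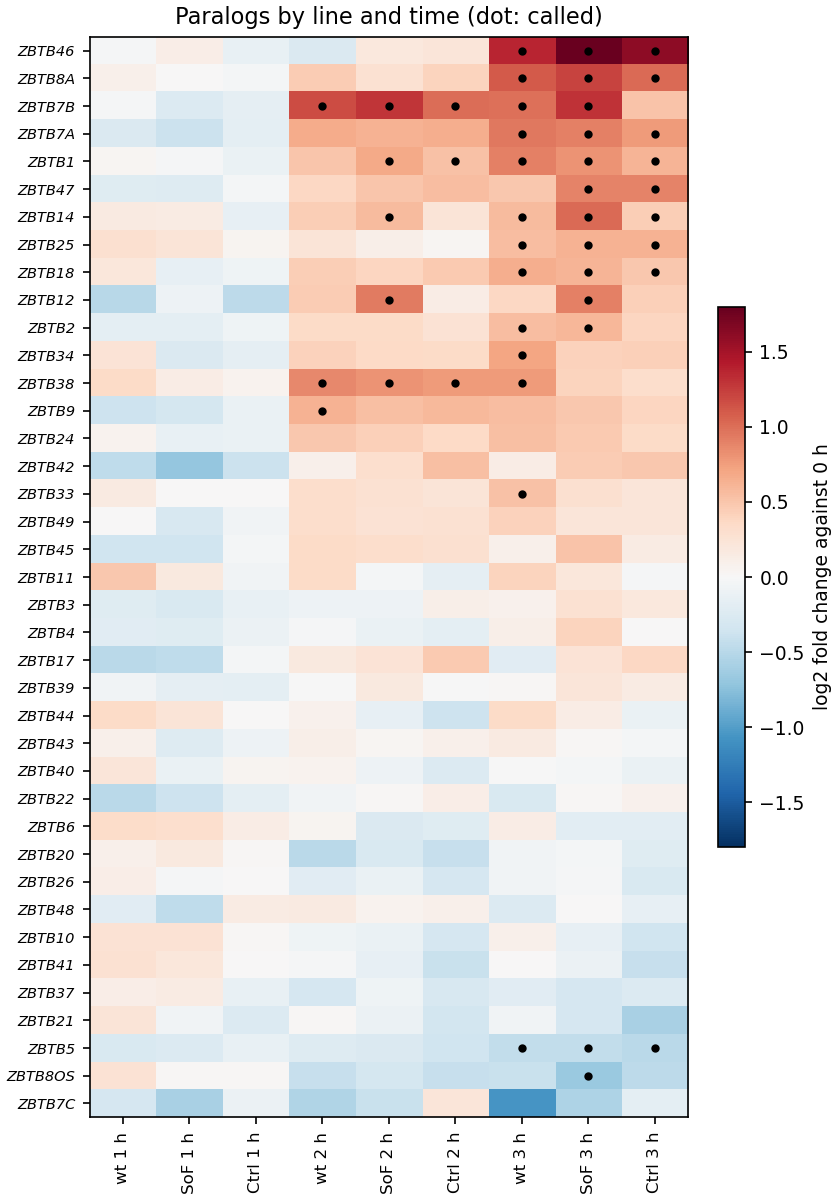
Log2 fold change against 0 h of the same line for the 39 tested paralogs (rows, ordered by the mean 3 h change) in 3 lines at 1, 2 and 3 h (columns), in red for higher and blue for lower, with a dot where the change was called. There is no dot at 1 h, and the dots are mostly red and at 3 h.

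In all 3 lines 8 of the 39 tested paralogs were called at 3 h with 1 direction, against 6.51% of all tested genes (4.2% higher and 2.31% lower) and 8.62% of the protein-coding ones. ZBTB1, ZBTB7A, ZBTB8A, ZBTB14, ZBTB18, ZBTB25 and ZBTB46 rose, and ZBTB5 fell. ZBTB2 and ZBTB7B were called in wt and SoF, and ZBTB47 in SoF and Ctrl. ZBTB8OS and ZBTB12 were called in SoF alone, and ZBTB33, ZBTB34 and ZBTB38 in wt alone, but no difference between lines in the 3 h response was called for any of them. Each of the 8 kept its direction in all of the alternatives run for its line.

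ZBTB46, a gene known as a mark of classical dendritic cells, had the largest change of the paralogs and rose only after 2 h. In wt it was at 4.85 and 7.23 CPM at 0 h, 6.93 and 4.94 at 1 h, 3.6 and 6.5 at 2 h, and 11.9 and 19.1 at 3 h. In SoF the values were 5.6 and 3.61 at 0 h, 5.63 and 4.56 at 1 h, 6.32 and 4.25 at 2 h, and 15.7 and 16.4 at 3 h. In Ctrl they were 6.71 and 4.95 at 0 h, 4.59 and 6.17 at 1 h, 7.18 and 6.6 at 2 h, and 16.5 and 19.6 at 3 h. All 6 libraries at 3 h lay above the other 18. The 3 h change was 1.37 in wt (SE 0.29, adjusted p = 0.00343), 1.78 in SoF (SE 0.304, adjusted p = 0.000274) and 1.61 in Ctrl (SE 0.298, adjusted p = 0.000916). The wt call was lost without its first library at 0 h or its second at 3 h.

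ZBTB8A stood at a higher level by counts and was called in no single line at 2 h, but in the mean over lines its 2 h change of 0.38 passed (SE 0.108, edgeR adjusted p = 0.011). In wt it had 20.1 and 27.8 CPM at 0 h, 21.6 and 29.1 at 1 h, 28.2 and 37.6 at 2 h, and 54.1 and 48.4 at 3 h. SoF had 25.1 and 23.9 at 0 h, 24.8 and 24.3 at 1 h, 26.7 and 32.7 at 2 h, and 53.6 and 60.6 at 3 h. Ctrl had 26 and 28.9 at 0 h, 29.2 and 24.3 at 1 h, 39.7 and 32.7 at 2 h, and 57.6 and 53.2 at 3 h. The 3 h libraries stood apart from the rest in every line. The change at 3 h was 1.101 in wt (SE 0.184, adjusted p = 0.000409), 1.22 in SoF (SE 0.186, adjusted p = 8.56e-05) and 1.02 in Ctrl (SE 0.185, adjusted p = 0.000793). A readthrough gene on the same strand shares 25.2% of the ZBTB8A exon length, and ZBTB8OS overlaps its end on the other strand, so that the split of reads at this locus is uncertain.

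ZBTB7A, a repressor of the fetal globin genes also known as LRF, and ZBTB1 rose earlier. ZBTB7A in the 6 libraries of a time ran from 61.2 to 95.3 CPM at 0 h (median 71.3), 45.2 to 72.8 at 1 h (64.6), 103 to 135 at 2 h (116) and 125 to 144 at 3 h (137). ZBTB1 ran from 123 to 160 CPM at 0 h (median 138), 113 to 163 at 1 h (138), 194 to 234 at 2 h (201) and 216 to 268 at 3 h (236). For both genes the 2 h libraries already lay above all of those at 0 h. At 3 h ZBTB7A had changed by 0.95 in wt (SE 0.209, adjusted p = 0.00456), 0.90 in SoF (SE 0.209, adjusted p = 0.00413) and 0.77 in Ctrl (SE 0.209, adjusted p = 0.0156). ZBTB1 had changed by 0.90 in wt (SE 0.156, adjusted p = 0.000558), 0.82 in SoF (SE 0.156, adjusted p = 0.000826) and 0.61 in Ctrl (SE 0.156, adjusted p = 0.0113). The ZBTB7A call was lost without the second 0 h library in each line, and in wt and Ctrl also without the second at 3 h. The Ctrl call of ZBTB1 was lost without its first library at 0 h or its second at 3 h.

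The other 3 called higher at 3 h in every line were ZBTB14, ZBTB18 and ZBTB25. ZBTB14 went from 25.9 to 37.2 CPM at 0 h (median 33.2) to between 47.9 and 58.7 at 3 h (50.2). ZBTB18, a repressor needed in brain development, went from 23.6 to 26.2 (24.6) to between 32.5 and 41.3 (38). ZBTB25 went from 25.7 to 40.4 (35.9) to between 41.5 and 61.9 (53.5). In none of them did the 0 h and 3 h libraries overlap. At 2 h ZBTB18 stood at 29.8 to 36.4 CPM, above all of its 0 h libraries, and ZBTB14 at 36.6 to 48.6 CPM. Both were called at 2 h in the mean over lines, and ZBTB25 was not. ZBTB14 had the widest spread between lines, at 0.57 in wt, 1.02 in SoF and 0.45 in Ctrl. Its SoF response exceeded that of Ctrl by 0.57 (SE 0.212, edgeR adjusted p = 1), which was not called. Its wt and Ctrl calls were lost without the second library at 0 h or either at 3 h. The ZBTB18 call was lost in wt without either library at 0 h or the first at 3 h, in SoF without the second at 0 h or at 3 h, and in Ctrl without any 1 of the 4. The Ctrl calls of ZBTB14 and ZBTB18 were also lost with RLE factors, without the filter and with the line alone. The ZBTB25 call was lost without either 3 h library in each line, and without the first 0 h library in wt and SoF and the second in Ctrl. Its wt call was also lost without the filter and with the line alone.

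ZBTB5 moved the other way. It had 211 and 218 CPM at 0 h in wt, then 167 and 186 at 1 h, 203 and 162 at 2 h, and 165 and 149 at 3 h. SoF had 209 and 198 at 0 h, 166 and 178 at 1 h, 176 and 163 at 2 h, and 150 and 150 at 3 h. Ctrl had 223 and 207 at 0 h, 207 and 187 at 1 h, 148 and 189 at 2 h, and 149 and 159 at 3 h. Every 3 h library lay below every 0 h library. The log2 change at 3 h was -0.45 in wt (SE 0.14, adjusted p = 0.0426), -0.44 in SoF (SE 0.14, adjusted p = 0.0296) and -0.48 in Ctrl (SE 0.14, adjusted p = 0.0237). In each line the call was lost when any 1 of its 4 libraries at 0 and 3 h was left out and when no filter was used, and in wt and Ctrl also with the line alone.

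**Figure D4:**
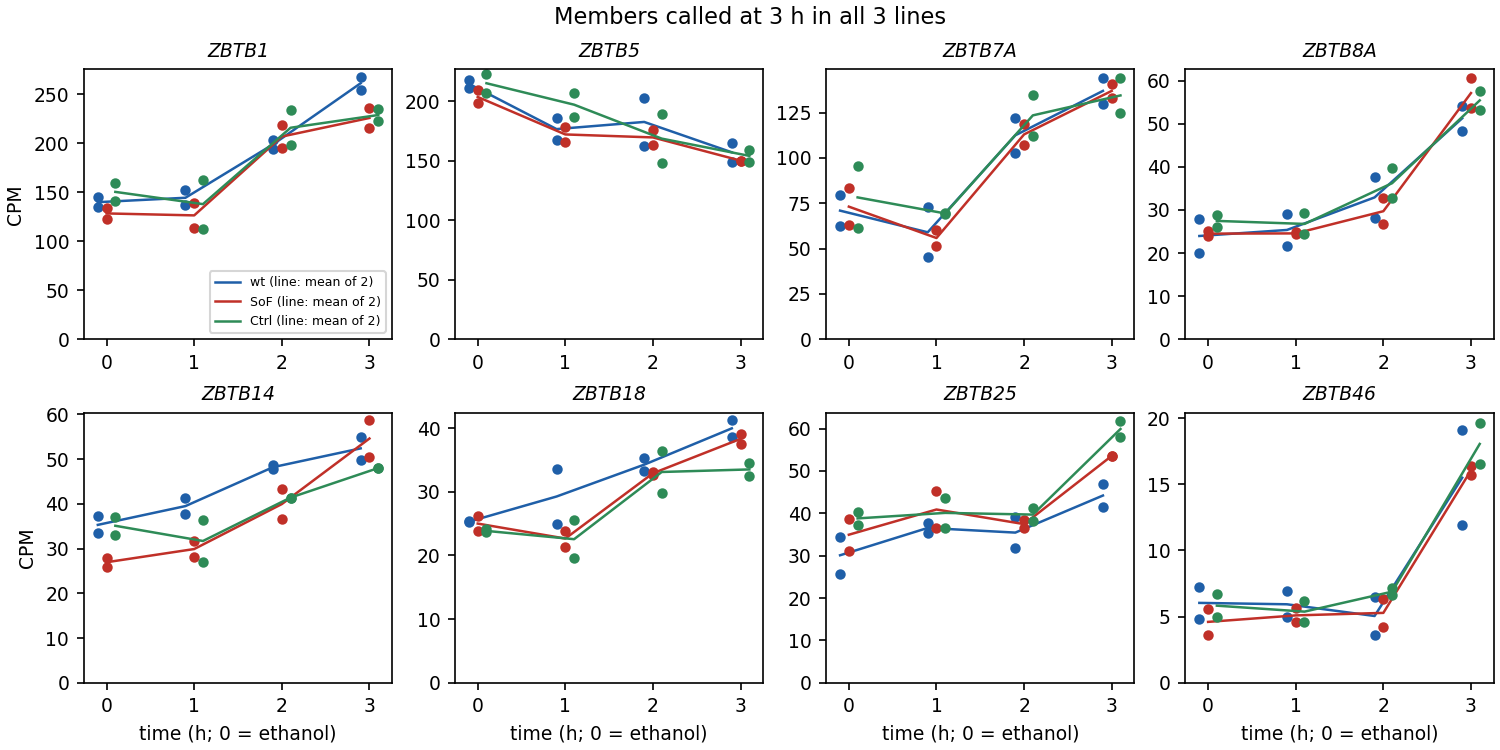
Levels (CPM, linear axes from 0) of the 8 paralogs called at 3 h in all 3 lines, by hours in dexamethasone, with points for libraries and lines through the means of 2. ZBTB46 lies between 11.9 and 19.6 CPM at 3 h, above all of its earlier libraries. ZBTB8A, ZBTB1, ZBTB7A, ZBTB14 and ZBTB18 are already higher in the mean at 2 h, and ZBTB5 is lower at 3 h than at 0 h.

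The mean over the 3 lines, which can show smaller changes, gave 19 called paralogs at 3 h, 16 higher and 3 lower. Over all tested genes 40.3% were called in this comparison, 20.9% higher and 19.3% lower, and over protein-coding genes 46.2%, 29% higher and 17.2% lower. The 48.7% of paralogs called was thus near the share of protein-coding genes. The median change of the paralogs was 0.19 against -0.03 for all genes. At 2 h 17 paralogs were called (14 higher and 3 lower), or 43.6%, against 28.8% of all genes (16.2% higher and 12.6% lower) and 34.4% of the protein-coding ones, and the count was 9 (13.4% of all genes) without the second ethanol library of every line. The 2 h and 3 h comparisons share the 0 h libraries. With the 1 h libraries as the baseline in their place, a choice made after seeing the data, 29 paralogs were called at 3 h (23 higher and 6 lower), against 50.6% of all genes.

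By size the 10 largest rises at 3 h were those of ZBTB46 (1.59, SE 0.172), ZBTB8A (1.11, SE 0.107), ZBTB7B (0.94, SE 0.132), ZBTB7A (0.87, SE 0.121), ZBTB1 (0.77, SE 0.0901), ZBTB47 (0.75, SE 0.124), ZBTB14 (0.68, SE 0.0864), ZBTB25 (0.60, SE 0.0942), ZBTB18 (0.59, SE 0.0919) and ZBTB12 (0.57, SE 0.144). Their edgeR adjusted p-values ran from 3.85e-08 for ZBTB8A to 0.00314 for ZBTB12. ZBTB2, ZBTB34, ZBTB38, ZBTB9, ZBTB24 and ZBTB33 followed, with rises of 0.35 to 0.52. ZBTB24 is the gene mutated in a form of ICF syndrome, an immunodeficiency with loss of DNA methylation, and ZBTB33, or Kaiso, binds methylated DNA as ZBTB38 does. ZBTB47 shares 30% of its exon length with a noncoding gene on the other strand. Even the largest of these rises was small beside the fitted mean change of 6.03 for ZBTB16, the gene chosen for its response.

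The 3 paralogs called lower at 3 h in the mean over lines were ZBTB7C (-0.60, SE 0.216, edgeR adjusted p = 0.0296), ZBTB8OS (-0.52, SE 0.104, adjusted p = 0.000406) and ZBTB5 (-0.46, SE 0.0808, adjusted p = 0.000108). ZBTB8OS ran from 13 to 18.1 CPM at 0 h (median 15.4) and from 9.9 to 12.1 at 3 h (10.4), without overlap. ZBTB7C was near the detection limit, at 1 to 2 CPM at 0 h (median 1.71) and 0.646 to 1.53 at 3 h (1.04). Its groups overlapped, and its call was lost in 12 of the 19 alternatives run, DESeq2 and the fit without a filter among them. ZBTB20, which represses the fetal gene AFP in liver, was called at 2 h (-0.39, SE 0.11, adjusted p = 0.0102) but not at 3 h (-0.10, SE 0.109, adjusted p = 0.474). The 2 h call was lost without the first SoF library at 2 h, without the second Ctrl library at 0 h, and without the second ethanol library of every line. A noncoding gene on the same strand shares 43% of the ZBTB20 exon length.

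**Figure D5:**
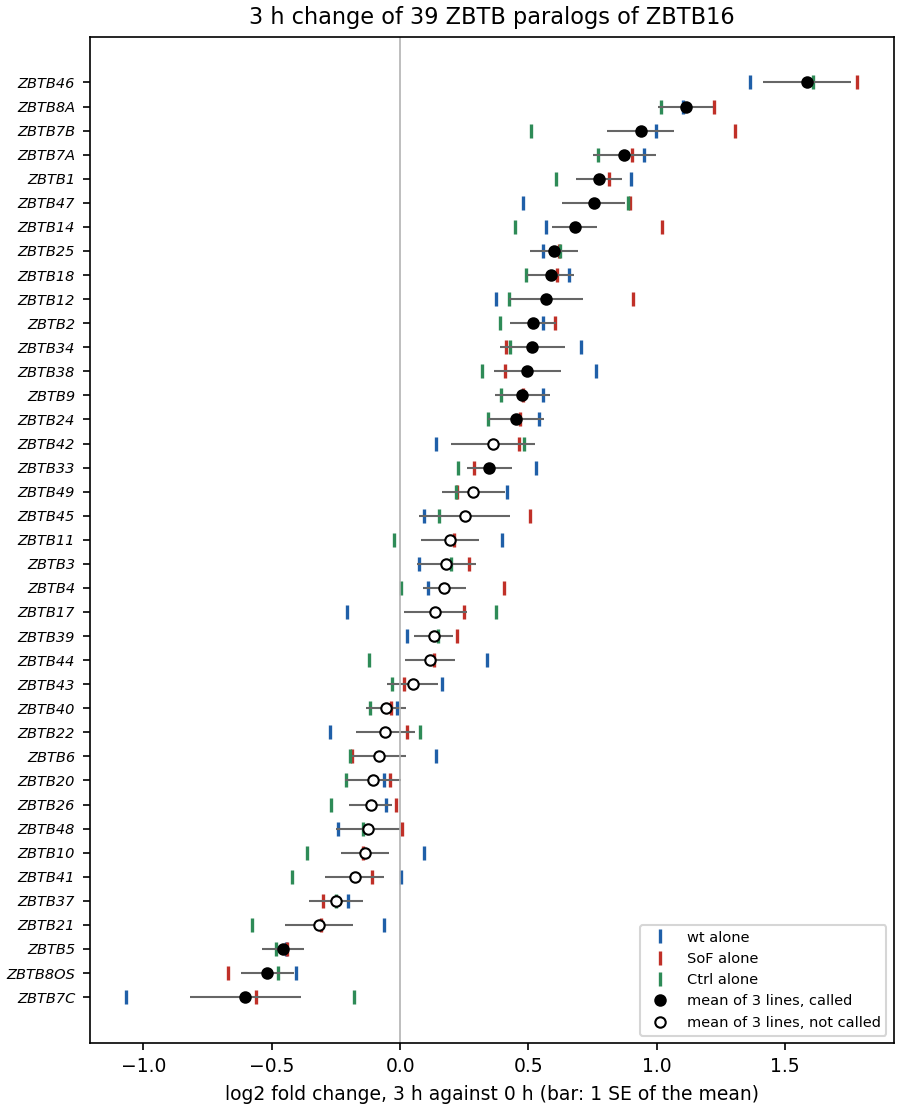
Log2 fold change at 3 h against 0 h of the 39 tested paralogs, with a circle for the mean of 3 lines (filled where called), a bar of 1 SE and a tick for each line alone. ZBTB46 (1.59) and ZBTB8A (1.11) lead, and ZBTB5, ZBTB8OS and ZBTB7C are the filled circles on the left.

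The remaining 20 tested paralogs were not called at 3 h in the mean, with changes from -0.32 for ZBTB21 to 0.36 for ZBTB42. They included ZBTB17, a partner of MYC (0.14, SE 0.122, adjusted p = 0.387), ZBTB4, a further protein that binds methylated DNA, and ZBTB48, which binds telomere repeats. Over all 39 the change at 3 h bore little relation to the level per kb (Spearman's rho 0.05) or to the span of the gene (rho -0.18), both given as descriptions over genes of the same libraries.

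A direct comparison of 3 h with 2 h, was added after the data had been seen. It called 4 paralogs, all higher at 3 h, against 10% of all genes (5.43% higher). They were ZBTB46 (1.54, SE 0.171, adjusted p = 2.34e-06), ZBTB8A (0.73, SE 0.105, adjusted p = 5.44e-05), ZBTB25 (0.48, SE 0.0938, adjusted p = 0.00149) and ZBTB4 (0.28, SE 0.0844, adjusted p = 0.0359). The first 3 were called in all 16 alternatives run, and the ZBTB4 call was lost in 9 of them. For ZBTB7B, already called at 2 h in every line, the step from 2 to 3 h was -0.22 (SE 0.129, adjusted p = 0.343), which did not pass.

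Several members are neighbours in the genome. ZBTB1 and ZBTB25 lie head to head on chromosome 14 with 1502 bp of overlap and 500 bp of shared exon on opposite strands. Both rose, ZBTB1 by 2 h and ZBTB25 between 2 and 3 h. ZBTB8A and ZBTB8OS meet tail to tail on chromosome 1 with 5770 bp of overlap, of which 179 bp are exon of both, and they moved in opposite directions. The pair ZBTB6 and ZBTB26 (2.24 kb apart on chromosome 9) was not called at 3 h, and of ZBTB34 and ZBTB43 (22.4 kb apart on chromosome 9) ZBTB34 alone was. Counting by strand is stated only in the title of the deposited table, so that overlapping genes on opposite strands are uncertain.

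Few differences between lines were called in the family. No paralog was called for a difference in the 3 h response between SoF and Ctrl (0.0127% of all genes), SoF and wt (0%) or Ctrl and wt (0%). At an unadjusted p under 0.05 there were 2, 1 and 0 paralogs in edgeR, and DESeq2 called 0 in each. Levels at 3 h alone also gave 0 called paralogs in each pair, by edgeR and by DESeq2, against 0.207% of all genes for SoF and wt, 0.474% for Ctrl and wt, and 0.668% for SoF and Ctrl. At an unadjusted p under 0.05 these pairs held 0, 1 and 0 paralogs.

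Over all times, 8 libraries a line, ZBTB37 was the 1 paralog called between SoF and wt, where 8.02% of all genes were. Its levels ran from 53.9 to 77.2 CPM in wt (median 63.5), 65 to 105 in SoF (80.1) and 70.1 to 99.7 in Ctrl (77). The lines overlapped. The difference from wt was 0.37 in SoF (SE 0.113, edgeR adjusted p = 0.0403) and 0.29 in Ctrl (SE 0.113, adjusted p = 0.142). The SoF call was lost without either replicate number, without the filter and with the 0 h libraries alone. No paralog was called between Ctrl and wt (4.77% of all genes) or between SoF and Ctrl (3.61%), with 4 and 1 at an unadjusted p under 0.05, and DESeq2 called 0 in both. With a term for time in the fit, which removes the response from the spread, 10 paralogs were called between SoF and wt (29% of all genes), 3 between Ctrl and wt (18.8%) and 1 between SoF and Ctrl (13.3%). In that fit ZBTB37 was higher (0.38 in SoF and 0.30 in Ctrl) and ZBTB47 lower (-0.43 and -0.58) than in wt in both mutants, and ZBTB7C was lower in SoF than in Ctrl (-0.64).

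Genes of the same protein class and of its partners were set beside the family. Of 8 BTB zinc finger genes with other names 6 were tested, and none was called at 3 h in any single line. Of all genes 10.7% were called in wt, 19.3% in SoF and 14.2% in Ctrl. At an unadjusted p under 0.05 edgeR gave 0 in wt, 0 in SoF and 2 in Ctrl. In the mean over lines BCL6, which directs germinal centre B cells, fell by 0.42 on the log2 scale (SE 0.119, adjusted p = 0.00701) and PATZ1 rose by 0.25 (SE 0.0975, adjusted p = 0.047). Together BCL6 and PATZ1 made 33.3% of the 6 tested, against 40.3% of all genes. Between lines over all times, MYNN was the 1 gene of the 6 called. It was higher in SoF than in wt by 0.69 (SE 0.0707, edgeR adjusted p = 5.12e-07, with 8.02% of all genes called). Against Ctrl it was higher in SoF by 0.71 (SE 0.0709, adjusted p = 2.05e-07, with 3.61% called). Of 17 corepressor and ubiquitin ligase partners of BTB domains, 1 was called at 3 h in wt, 3 in SoF and 2 in Ctrl, all higher. These were 5.88%, 17.6% and 11.8% of the list, against 10.7%, 19.3% and 14.2% of all genes. In the mean over lines 5 rose, among them HDAC7 (0.75, SE 0.106) and BCOR (0.55, SE 0.0997). This was 29.4% of the list, against 40.3% of all genes.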

How the data were processed

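Newly made RNA of 24 U2OS libraries was used. Per the labels, the authors handled unique molecular identifiers with UMI-tools 1.1.2, trimmed with Trim Galore 0.6.6, aligned to hg38 with STAR 2.7.3a and counted with featureCounts. The table the authors deposited holds whole-number counts per gene over GENCODE 39 exons, without normalization. Symbols, types and positions came from GENCODE 44 (61369 of 61533 identifiers, 99.7%).

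With edgeR 4.0.16 in R 4.3.3 (limma 3.58.1), counts were scaled by TMM, filtered by filterByExpr (minimum count 10, total 15) and tested by quasi-likelihood, with Benjamini-Hochberg adjusted p-values over all genes in the fit. "Called" means an adjusted p below 0.05. The fit over 12 groups kept 23651 genes and a fit on line alone 21122. Standard errors are the log2 change over the square root of F. The study used DESeq2, run here (1.42.0) as an alternative with RLE factors, no filter, a replicate block, single lines, a time term and libraries left out. The code was tested on simulated data.

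The members and gene lists were chosen with earlier results of these data known. Named with full values were ZBTB16, members called at 3 h in every line, the 10 largest rises and falls in the mean over lines, and members called between lines. Others named were singled out after their values were seen. Protein sequences were not used here. The values of 1 gene on the list of partners are not reported here.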

Additional observations from a re-analysis of the deposited data

How the results depend on the processing

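The direction of 1 named result reversed in the alternatives run. The difference in the ZBTB16 response between Ctrl and wt, -0.49 and not called, was 0.11 without the first wt library at 0 h and 0.37 without the first Ctrl library at 0 h, the 8 fits that leave out 1 library running from -1.37 to 0.37. Counts of called paralogs that moved by over 1.5 times were as follows. At 2 h in wt 3 became 5 with DESeq2, 5 without the filter and 1 with the line alone. At 3 h in wt 13 became 8 with the line alone. In Ctrl at 2 h 3 became 5 with DESeq2. In the mean over lines, without the second ethanol library of every line (chosen after seeing the data), 0 became 17 at 1 h and 17 became 9 at 2 h. With 1 h libraries as the baseline, also chosen then, 19 became 29 (50.6% of all genes). Between SoF and wt 1 became 0 without the filter, 0 with the 0 h libraries alone and 10 with a time term. The time term gave 3 between Ctrl and wt and 1 between SoF and Ctrl, from 0 in both.

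Leaving out 1 library at a time gave 0 to 1 paralogs in wt at 2 h, 3 to 5 in wt at 3 h, 1 to 6 in SoF at 2 h, 6 to 13 in SoF at 3 h, 0 to 5 in Ctrl at 2 h, 2 to 9 in Ctrl at 3 h, 0 to 3 in the mean at 1 h, 14 to 20 at 2 h, 18 to 22 at 3 h, 3 to 5 from 2 to 3 h, and 0 to 0 for the differences between lines in the 3 h response and in the 3 h level. For the fit on line alone each replicate number was left out in every group at once, which gave 0 to 0. A lone library left in a group was assumed to vary like the other groups. Over 60 results of single members and 788 alternative fits, 697 kept direction and side of the threshold, 89 lost the call and 2 reversed. Fits of ZBTB16 against 0 h and from 2 to 3 h are among these, although it was chosen for its response, and they add no support. RLE factors moved the median of all genes by less than 0.1. Replicate numbers were not taken as pairs, since the correlation of same-numbered deviations over 66 pairs of groups ran from -0.221 to 0.568 (median 0.038, 21 over 0.1). Between the 0 h groups it was 0.394 to 0.568, so that these libraries did deviate together. With a replicate block the count was 14 in wt, 13 in SoF, 9 in Ctrl and 21 in the mean at 3 h. Depth limits ZBTB16 at 0 h, with 1 to 5 counts, and left ZBTB32 and ZBTB8B untested.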
